A study of Rattus norvegicus with 24 samples.

Results

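Gata2, Gata3, Tal1, Sox14, Pax7, Otx1, Lhx1 and Nkx2-2 are 8 transcription factor genes tied to the making of GABA neurons in the midbrain. They were taken by symbol from tables of 37403 genes, and all 8 symbols were present. RNA was sequenced from bilateral punches of the ventral tegmental area (VTA) and the nucleus accumbens (NAC) of adult F1 rats, labelled as male, of postnatal day 60 or older. MOR-sired rats had fathers that took morphine by self-administration for 60 days, and the fathers of SAL-sired rats took saline in the same way. VTA was represented by 5 MOR-sired and 5 SAL-sired libraries, and NAC by 7 MOR-sired and 7 SAL-sired ones. The sources used here name neither strain nor litter, nor say whether both punches came from 1 animal, and a p-value reflects the spread among these libraries only.

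GABA neurons of the midbrain are inhibitory, and those near the VTA act as a brake on dopamine neurons. In the mouse embryo, Gata2 selects the GABA fate in midbrain precursors as they leave the cell cycle, and Tal1 and Gata3 are expressed in the newborn neurons. Gata2 and Gata3 are also used by the serotonin neurons of the mouse hindbrain raphe, which lies just behind the midbrain. GATA factors bind WGATAR DNA motifs, TAL1 binds E-boxes with an E-protein partner, and LMO and LDB proteins hold the complex together in blood cells. The punches were bulk tissue, in which fewer cells of a type and less RNA per cell cannot be told apart.

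The stretches of 250 bases upstream of the annotated start are shown for Gata2, Gata3 and Tal1, the members that form this GATA-TAL group, and for Tph2, the serotonin synthesis gene whose level they are set against below. The sequences are RefSeq's for rat build GRCr8, and 7 of the 8 members matched the promoter table. They lie at chr4:122216031-122216280 on the plus strand for Gata2, chr17:73553298-73553547 on the plus strand for Gata3, chr5:133824214-133824463 on the plus strand for Tal1 and chr7:52675640-52675889 on the minus strand for Tph2. Capitals mark matches on either strand to a GATA hexamer (A or T followed by GATAA or GATAG) or to 1 of 2 E-boxes, CAGATG (the first kind) and CAGCTG (the second kind).
Gata2: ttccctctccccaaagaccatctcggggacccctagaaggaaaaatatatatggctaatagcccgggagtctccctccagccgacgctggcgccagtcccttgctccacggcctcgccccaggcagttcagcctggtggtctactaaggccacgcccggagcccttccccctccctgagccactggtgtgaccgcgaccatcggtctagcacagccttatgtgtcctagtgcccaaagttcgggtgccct
Gata3: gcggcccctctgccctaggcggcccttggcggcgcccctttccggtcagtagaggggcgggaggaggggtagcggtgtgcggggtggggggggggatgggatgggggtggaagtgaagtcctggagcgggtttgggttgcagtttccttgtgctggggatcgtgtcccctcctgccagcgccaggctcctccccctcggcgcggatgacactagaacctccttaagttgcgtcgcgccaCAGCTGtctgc
Tal1: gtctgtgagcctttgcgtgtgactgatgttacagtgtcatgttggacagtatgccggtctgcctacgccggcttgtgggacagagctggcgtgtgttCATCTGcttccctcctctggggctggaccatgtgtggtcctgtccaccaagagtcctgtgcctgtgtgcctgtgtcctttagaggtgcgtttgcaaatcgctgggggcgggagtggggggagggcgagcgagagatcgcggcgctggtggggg
Tph2: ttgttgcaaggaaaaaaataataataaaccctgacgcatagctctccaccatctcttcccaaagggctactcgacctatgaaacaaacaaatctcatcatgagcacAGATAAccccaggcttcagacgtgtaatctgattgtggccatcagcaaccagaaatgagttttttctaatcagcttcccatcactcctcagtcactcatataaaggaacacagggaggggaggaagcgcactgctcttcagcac
The Gata3 window held an E-box of the second kind at -11 to -6 from the start. The Tal1 window held an E-box of the first kind, read on the opposite strand, at -153 to -148. The Tph2 window held a GATA hexamer at -144 to -139. The Gata2 window held none of these letters. Among 33469 promoter windows of the same length, 27.0% held a GATA hexamer, 14.0% held CAGATG and 12.0% held CAGCTG. The matches are a description of these windows and did not overlap one another.

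All 8 genes were detected in VTA, at low to moderate levels. Levels are in CPM, the estimated counts of a gene per 1e6 counts in a library, which here are scaled for transcript length and can be set side by side between genes. Nkx2-2, a progenitor factor also used by oligodendrocyte precursors and hindbrain serotonin progenitors in the mouse, had the highest level of the 8 at 13.9 ± 1.93 CPM over the VTA libraries (SD, n = 10). Gata3 followed at 7.34 ± 2.18 CPM, Tal1 at 6.25 ± 1.38 CPM, Gata2 at 6.24 ± 1.49 CPM and Otx1, a homeobox gene of the anterior brain, at 5.28 ± 0.914 CPM. Sox14, a marker of a subset of midbrain GABA neurons in the mouse, stood at 3.45 ± 1.44 CPM, level with the LIM homeobox gene Lhx1 at 3.45 ± 0.769 CPM. Pax7, a factor of the dorsal midbrain, was lowest at 0.383 ± 0.200 CPM. The lowest Nkx2-2 library, at 10.7 CPM, lay above the highest Gata3 library, at 9.83 CPM, and the highest Pax7 library, at 0.680 CPM, lay below the lowest Sox14 library, at 1.89 CPM. Gata3, Tal1, Gata2 and Otx1 did not differ from one another beyond the spread between libraries, nor did Otx1 and Sox14 have separate ranges.

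The NAC punches divided the 8 genes into 2 sets of 4. Gata3 reached at most 0.345 CPM in any of the 14 NAC libraries, Lhx1 0.106 CPM, Sox14 0.105 CPM and Pax7 0.0604 CPM. These 4 genes were listed at 0 in 3 NAC libraries for Gata3, 1 for Lhx1, 10 for Sox14 and 7 for Pax7, and they fell under the low-count filter there. The other 4 were present in every NAC library. The mean level of Nkx2-2 was 13.9 CPM in VTA against 6.76 ± 1.05 CPM in NAC (SD, n = 14), and that of Otx1 5.28 CPM in VTA against 3.01 ± 1.16 CPM in NAC. Gata2 had 6.24 CPM in VTA against 2.29 ± 0.323 CPM in NAC, and Tal1 had 6.25 CPM in VTA against 1.44 ± 0.253 CPM in NAC. The markers that define GABA neurons went the other way. Gad1, which encodes a GABA-making enzyme, had a mean of 97.2 CPM in VTA against 234 CPM in NAC, and the vesicular GABA transporter Slc32a1 had 124 CPM in VTA against 209 CPM in NAC. The 8 genes thus did not follow the GABA markers across regions, and Gata2, Tal1, Otx1 and Nkx2-2 were not restricted to the midbrain punch. The regions were set side by side with no test, since their tables were deposited separately.

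**Figure D1:**
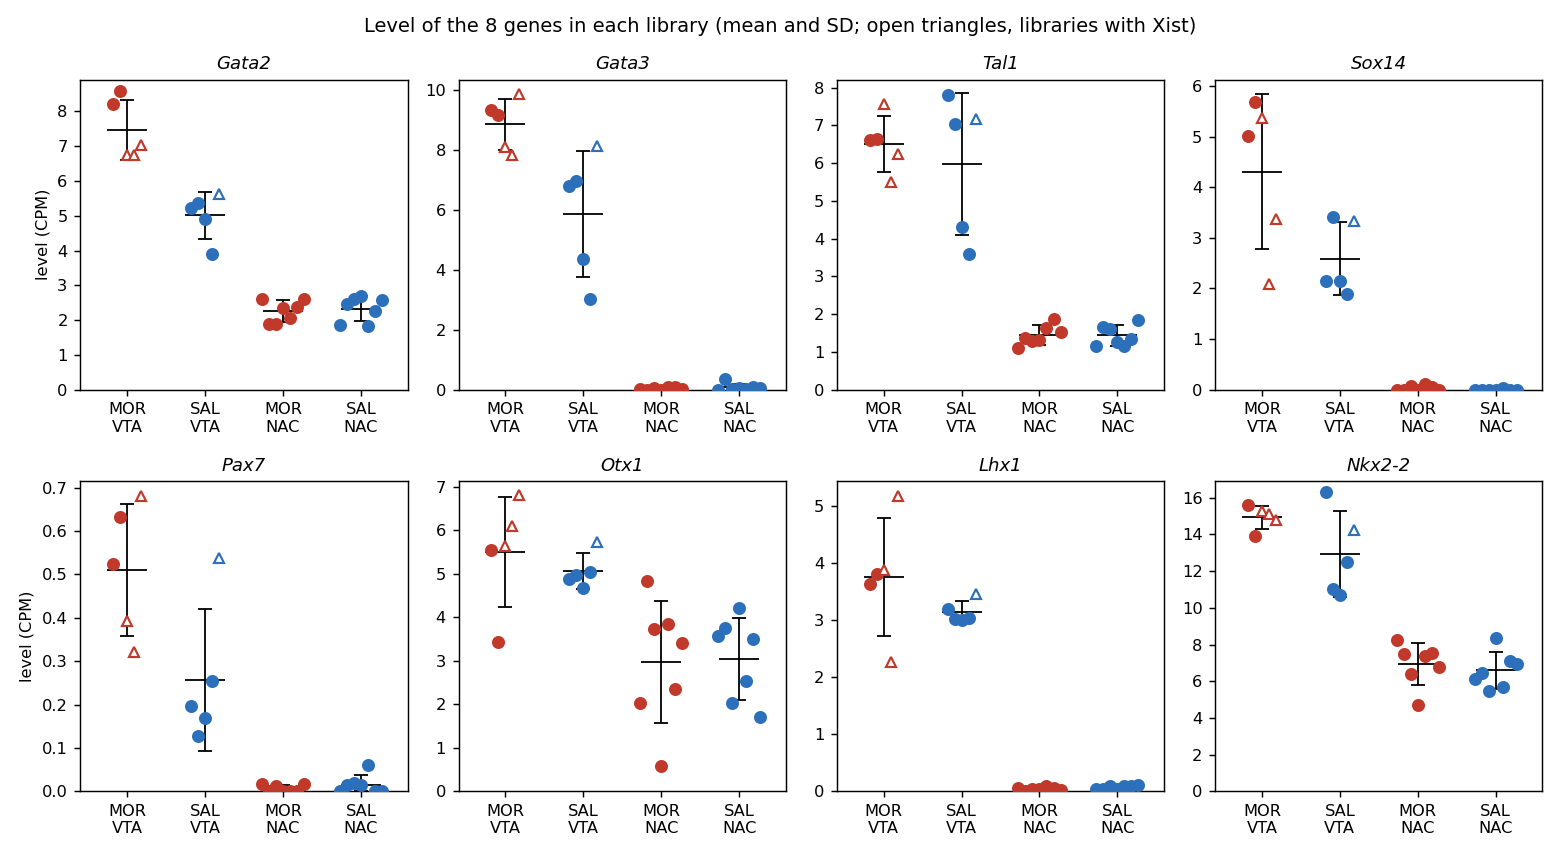
Level in CPM (vertical axis, linear, 1 panel per gene) of the 8 genes in each MOR-sired and SAL-sired library of VTA and NAC. Points are libraries, open triangles the 4 VTA libraries with Xist, and bars the mean and SD, with the lower bar ending at 0 where the SD exceeds the mean. All 5 MOR-sired VTA libraries lie above the 5 SAL-sired ones for Gata2, and Gata3, Sox14, Pax7 and Lhx1 lie near 0 in NAC.

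Several VTA libraries stood apart before any sire comparison. Library totals were 23.6 to 43.5 M estimated counts in VTA (1 M is 1e6) and 21.9 to 41.3 M in NAC. MOR-sired VTA libraries 3, 4 and 5 and SAL-sired VTA library 5 held 78.9 to 108 CPM of Xist, the transcript of the silenced X chromosome of females, although the labels call the animals male. The Y-linked gene Ddx3y had a median of 0.0325 and a highest level of 49.3 CPM in MOR-sired VTA. In SAL-sired VTA its median was 52.8 and its lowest level 0.0720 CPM. Medians of Eif2s3y, Kdm5d and Uty in MOR-sired VTA were 0.141, 0.0294 and 0.0225 CPM. Xist was thus split unevenly between the sire groups in VTA. Tph2 read 0.573 CPM in SAL-sired VTA library 3 and 0.330 CPM in SAL-sired VTA library 4, while the lowest of the other 8 was 14.9 CPM. The same pair of libraries had the highest level of Slc17a6, the glutamate transporter of subcortical neurons, at 130 and 123 CPM. MOR-sired VTA library 2 had the lowest TMM scaling factor of the VTA libraries, 0.849. Without the 4 libraries with Xist the log2 fold changes of the 8 genes between sire groups, described next, were 0.02 to 1.76, and without SAL-sired libraries 3 and 4 they were -0.09 to 0.84.

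The sire comparison asked whether the 8 genes differed between offspring of morphine and saline fathers. In VTA the fitted level of all 8 was higher in MOR-sired libraries, with log2 fold changes of 0.19 to 1.01, and none passed edgeR's quasi-likelihood test after Benjamini-Hochberg adjustment over 19923 genes. That test called 0% of all genes. At an unadjusted p under 0.05, 5 of the 8 stood out, all higher, against 5.31% of all genes in either direction and 2.75% of all genes higher in MOR-sired libraries. A fitted level above SAL-sired was found for 47.4% of all genes, whose median log2 fold change was -0.01. Pax7 passed the low-count filter through its MOR-sired libraries. Of the other 7 genes all were higher, with a median of 0.33, and 4 had an unadjusted p under 0.05. The count of 5 of 8 was not stable: it was 3 without MOR-sired library 2 or without any one of SAL-sired libraries 2, 3 and 4, and 4 or 5 without any other single library. It was 2 without both SAL-sired libraries 3 and 4, 2 in the fit of all 24 libraries, 1 with the Slc32a1 level as a covariate and 0 with the Tph2 level as a covariate. Tph2 did not overlap between the sire groups, so the Tph2 fit cannot cleanly separate sire group from Tph2 level. The levels of several of the 8 genes were correlated across libraries, so these counts describe linked values. The 8 genes were also chosen with earlier results of these data known. Their counts, set beside the shares of all genes, are thus a description and cannot test the group.

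Gata2, a selector of the GABA fate in mouse midbrain precursors, had 8.23, 8.57, 6.74, 6.74 and 7.05 CPM in the MOR-sired VTA libraries 1 to 5, against 5.23, 5.37, 4.90, 3.91 and 5.63 CPM in the SAL-sired ones. The groups did not overlap, which was so for 0.171% of all genes in this direction and for Gata2 alone of the 8. The log2 fold change was 0.67 (SE 0.14), or 1.59-fold (95% interval 1.28 to 1.99), at an unadjusted p of 0.000778 and an adjusted p of 0.793 in the edgeR quasi-likelihood test. DESeq2, run on the same genes as an alternative, called Gata2 at an adjusted p of 0.0262. Over all alternatives the adjusted p ran from 0.00875 (DESeq2 with no filter) to 1.0, and the log2 fold change from 0.40 to 0.97. It was 0.97 (edgeR unadjusted p = 0.00114) without the 4 libraries with Xist and 0.55 (edgeR unadjusted p = 0.00617) without SAL-sired libraries 3 and 4. It was lowest, at 0.40 (edgeR unadjusted p = 0.0518), with the Tph2 level as a covariate.

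Gata3, expressed in newborn GABA neurons, had 9.31, 9.16, 8.09, 7.81 and 9.83 CPM in the MOR-sired VTA libraries, against 6.79, 6.96, 4.35, 3.03 and 8.13 CPM in the SAL-sired ones. The groups overlapped through SAL-sired library 5, and the lowest levels were those of SAL-sired libraries 3 and 4. Its log2 fold change was 0.68 (SE 0.24, edgeR unadjusted p = 0.0173, adjusted p = 0.886). It was 0.35 without SAL-sired libraries 3 and 4 and 0.04 with the Tph2 level as a covariate.

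Tal1, the E-box binding member of the GATA-TAL group, had 6.61, 6.63, 7.57, 5.50 and 6.25 CPM in the MOR-sired VTA libraries, against 7.81, 7.03, 4.31, 3.61 and 7.17 CPM in the SAL-sired ones. SAL-sired libraries were both the highest and the 2 lowest of the 10. A log2 fold change of 0.21 (SE 0.22, edgeR unadjusted p = 0.354) became -0.09 without SAL-sired libraries 3 and 4 and -0.31 with the Tph2 level as a covariate. The direction for Tal1 thus turned with the setting.

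Sox14, the GABA subset marker, had 5.00, 5.69, 5.37, 2.09 and 3.37 CPM in the MOR-sired VTA libraries, against 2.15, 3.41, 2.16, 1.89 and 3.34 CPM in the SAL-sired ones. Libraries 1, 2 and 3 of the MOR-sired group were higher than all others, and the other 2 lay within the SAL-sired range. The log2 fold change was 0.83 (SE 0.30, edgeR unadjusted p = 0.020, adjusted p = 0.886), and 1.33 without the 4 libraries with Xist. It was 0.63 (edgeR unadjusted p = 0.118) without SAL-sired libraries 3 and 4, 0.41 (edgeR unadjusted p = 0.331) with the Tph2 level as a covariate and 0.43 (edgeR unadjusted p = 0.181) with the Slc32a1 level as a covariate.

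Pax7, a paired-box factor, had 0.523, 0.631, 0.393, 0.322 and 0.680 CPM in the MOR-sired VTA libraries, against 0.196, 0.127, 0.170, 0.255 and 0.538 CPM in the SAL-sired ones. These levels rest on 3.33 to 27.4 estimated counts a library. SAL-sired library 5 alone of its group lay within the MOR-sired range. Its log2 fold change was 1.01 (SE 0.41, edgeR unadjusted p = 0.0323, adjusted p = 0.928), 1.76 without the libraries with Xist and 0.65 with the Tph2 level as a covariate.

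Nkx2-2, the progenitor factor, had 15.6, 13.9, 15.3, 15.1 and 14.8 CPM in the MOR-sired VTA libraries, against 16.3, 11.0, 10.7, 12.5 and 14.2 CPM in the SAL-sired ones. The highest library was a SAL-sired one, and 3 SAL-sired libraries lay below every MOR-sired one. The log2 fold change was 0.29 (SE 0.12, edgeR unadjusted p = 0.0341, adjusted p = 0.928). It was 0.18 (edgeR unadjusted p = 0.170) without SAL-sired libraries 3 and 4 and 0.15 (edgeR unadjusted p = 0.407) with the Tph2 level as a covariate. The 5 oligodendrocyte markers, a cell lineage that also uses Nkx2-2, were all higher in MOR-sired VTA and none passed the edgeR test. Their summed level was 19793 to 27171 CPM in MOR-sired and 18269 to 23936 CPM in SAL-sired libraries, and their part in the Nkx2-2 value was not tested.

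Lhx1, the LIM factor, had 3.63, 3.81, 3.88, 2.27 and 5.17 CPM in the MOR-sired VTA libraries, against 3.19, 3.02, 3.00, 3.03 and 3.45 CPM in the SAL-sired ones. MOR-sired libraries were both the highest and the lowest. Its log2 fold change was 0.33 (SE 0.18, edgeR unadjusted p = 0.0902). Otx1, the anterior homeobox gene, had 5.55, 3.43, 5.63, 6.10 and 6.81 CPM in the MOR-sired VTA libraries, against 4.87, 4.98, 4.67, 5.05 and 5.74 CPM in the SAL-sired ones. The low value was that of MOR-sired library 2, and the ranges overlapped. The log2 fold change was 0.19 (SE 0.14, edgeR unadjusted p = 0.183), and 0.02 without the 4 libraries with Xist.

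**Figure D2:**
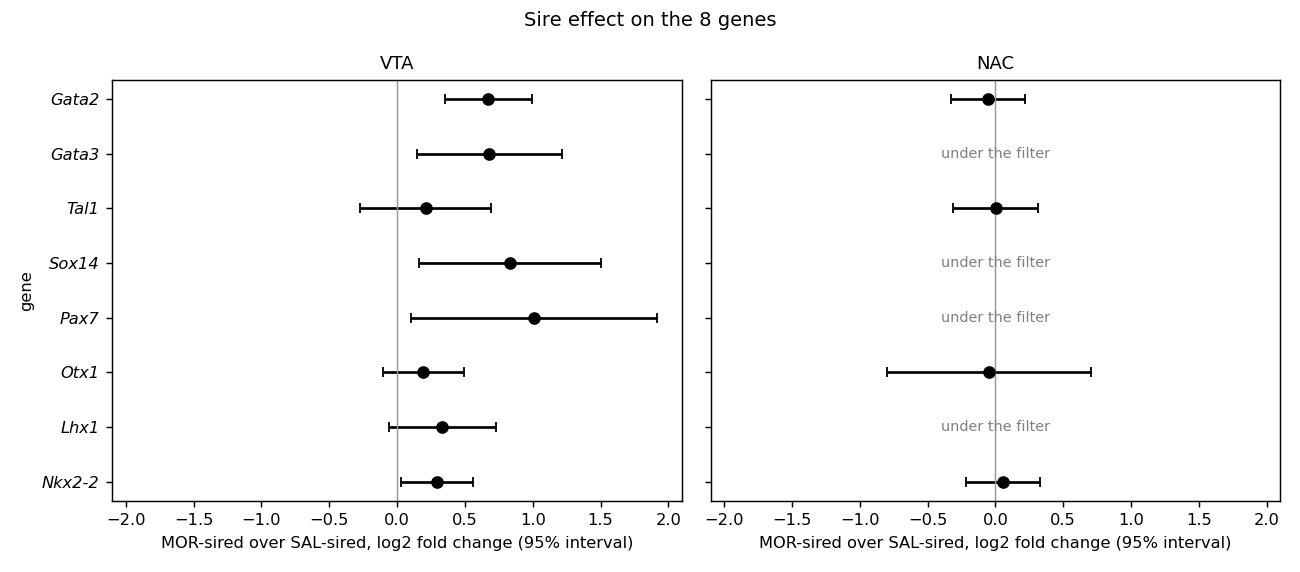
Log2 fold change of MOR-sired over SAL-sired libraries with its 95% interval (horizontal axis) for each of the 8 genes (rows), in VTA (left) and NAC (right), from the edgeR fits. In VTA all 8 points lie at or above 0.19, and in NAC the 4 genes that could be tested lie between -0.05 and 0.06.

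In NAC none of the 4 genes that could be tested passed, and their fold changes lay near 0. Gata2 had a lowest, median and highest level of 1.89, 2.35 and 2.62 CPM in MOR-sired NAC libraries, against 1.83, 2.47 and 2.70 CPM in SAL-sired ones. Its log2 fold change was -0.05 (95% interval -0.33 to 0.22). Tal1 had 1.10, 1.38 and 1.88 CPM in MOR-sired NAC libraries, against 1.15, 1.34 and 1.84 CPM in SAL-sired ones, a log2 fold change of 0.00 (95% interval -0.31 to 0.32). Both pairs of ranges overlapped almost entirely. Otx1 had 0.594, 3.42 and 4.83 CPM in MOR-sired NAC libraries, against 1.70, 3.50 and 4.21 CPM in SAL-sired ones, and both its lowest and its highest library were MOR-sired. Its log2 fold change was -0.05 with a wide 95% interval of -0.80 to 0.70. Nkx2-2 had 4.70, 7.40 and 8.24 CPM in MOR-sired NAC libraries, against 5.46, 6.46 and 8.38 CPM in SAL-sired ones, a log2 fold change of 0.06 (95% interval -0.21 to 0.33). All 4 had an adjusted p of 1.0 in the edgeR quasi-likelihood test, which called 0% of 18220 genes and had 6.18% at an unadjusted p under 0.05.

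Whether the sire effect differed by region was tested directly. For Gata2 the effect in VTA exceeded that in NAC by 0.74 on the log2 scale (SE 0.19, 95% interval 0.34 to 1.13, edgeR unadjusted p = 0.000797, adjusted p = 0.464 over 20603 genes). That contrast called 0% of genes and had 4.78% at an unadjusted p under 0.05. The same difference was 0.22 for Tal1, 0.25 for Otx1 and 0.25 for Nkx2-2, each with an adjusted p of 1.0 in edgeR's test. Gata3, Sox14, Pax7 and Lhx1 lay too near 0 in NAC for such a difference to be read.

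Markers of other neurons differed in level between the sire groups in VTA without passing the test, and their part in the values above was not tested beyond the covariate fits. The Tph2 covariate was fitted over every VTA library, SAL-sired libraries 3 and 4 included. Because Tph2 did not overlap between the sire groups, that fit cannot cleanly separate sire group from Tph2 level. The 4 serotonin markers Tph2, Slc6a4, Fev and Lmx1b were all fitted higher in MOR-sired libraries and none passed the edgeR test. Lmx1b hardly differed, with means of 28.4 CPM in MOR-sired and 28.1 CPM in SAL-sired libraries. Its log2 fold change was 0.09 (edgeR unadjusted p = 0.522). The summed level of the 4 was 131 to 292 CPM in MOR-sired libraries (median 260) and 23.3 to 117 CPM in SAL-sired ones (median 59.4). Lmx1b stood at 22.3 CPM or more in every SAL-sired library and so made up most of the lowest sum. Tph2 itself had 156, 140, 59.7, 142 and 76.7 CPM in MOR-sired libraries, against 14.9, 56.1, 0.573, 0.330 and 45.4 CPM in SAL-sired ones, with no overlap. Its log2 fold change was 2.40 (SE 1.03, edgeR unadjusted p = 0.0410, adjusted p = 0.928). The 3 GABA markers Gad1, Gad2 and Slc32a1 summed to 271 to 423 CPM in MOR-sired libraries (median 358) and 229 to 366 CPM in SAL-sired ones (median 295), all 3 higher and none called. With Slc32a1 as a covariate, added after the values were seen, the Gata2 log2 fold change was 0.58 (edgeR unadjusted p = 0.00476). Slc17a6 and Pou4f1, both of subcortical glutamate neurons, summed to 21.3 to 64.4 CPM in MOR-sired libraries and 30.8 to 135 CPM in SAL-sired ones. The 6 dopamine markers were also all fitted higher in MOR-sired libraries and none was called, with a median log2 fold change of 0.23. Their sums overlapped, as those of the GABA markers did, at 3042 to 5577 CPM in MOR-sired libraries and 2616 to 5976 CPM in SAL-sired ones. No marker of these 4 lists was at 0 in any group.

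The relation of the 8 genes to Tph2 and to Th, the rate-limiting enzyme of dopamine synthesis, was measured across VTA libraries on log2(CPM + 1). Th ran from 1293 to 2881 CPM without a gap, so all 10 libraries were used. The pair of libraries with Tph2 under 1 CPM formed a separate cluster, so the Tph2 relations were taken within the other 8. Of the 16 relations, none passed after Benjamini-Hochberg adjustment over the 16, by Pearson's r or by Spearman's rho. At an unadjusted permutation p under 0.05 there were 4 by r and 3 by rho.

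Gata2 was higher in libraries with more Tph2, at r = 0.83 (exact permutation p = 0.00727, adjusted p = 0.0581), with a rho of 0.86 (exact permutation p = 0.0107, adjusted p = 0.0857). Leaving out the 2 libraries farthest from the Tph2 median gave r = 0.77. On TMM-scaled CPM rho was 0.98 (exact permutation adjusted p = 0.00635), past the threshold. With the sire group means removed r was 0.51 (permutation p = 0.189). Every MOR-sired library had both more Tph2 and more Gata2 than every SAL-sired one. Within the sire groups r was 0.63 over 5 MOR-sired and 0.67 over 3 SAL-sired libraries. Gata3 had r = 0.67 with Tph2 (exact permutation p = 0.0658, adjusted p = 0.211), which became 0.32 without the 2 farthest libraries.

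Tal1 ran opposite to Tph2 within the same 8 libraries, at r = -0.75 (exact permutation p = 0.0319, adjusted p = 0.128), with a rho of -0.81 (exact permutation p = 0.0218, adjusted p = 0.116). On TMM-scaled CPM r was -0.39, so the size of this relation rests on the scaling. The libraries low in Tph2, SAL-sired 3 and 4, were the ones lowest in Tal1, and lie outside that relation. Sox14, Pax7, Otx1, Lhx1 and Nkx2-2 had r between -0.09 and 0.51 with Tph2, all with unadjusted exact permutation p of 0.204 or more.

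Otx1 was the gene closest to Th, at r = 0.76 (permutation p = 0.00499, adjusted p = 0.0581). By rank its rho was 0.82 (permutation p = 0.00553, adjusted p = 0.0857). The r was 0.64 without the 2 farthest libraries and 0.75 with the sire group means removed. Within the sire groups r was 0.92 over 5 MOR-sired and 0.78 over 5 SAL-sired libraries. Without the 4 libraries with Xist r was 0.55 over 6 libraries (exact permutation p = 0.268). Nkx2-2 had r = 0.71 with Th (permutation p = 0.0230, adjusted p = 0.123) and a rho of 0.58. The other 6 genes had r of 0.08 to 0.57 with Th and unadjusted permutation p of 0.0820 or more.

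**Figure D3:**
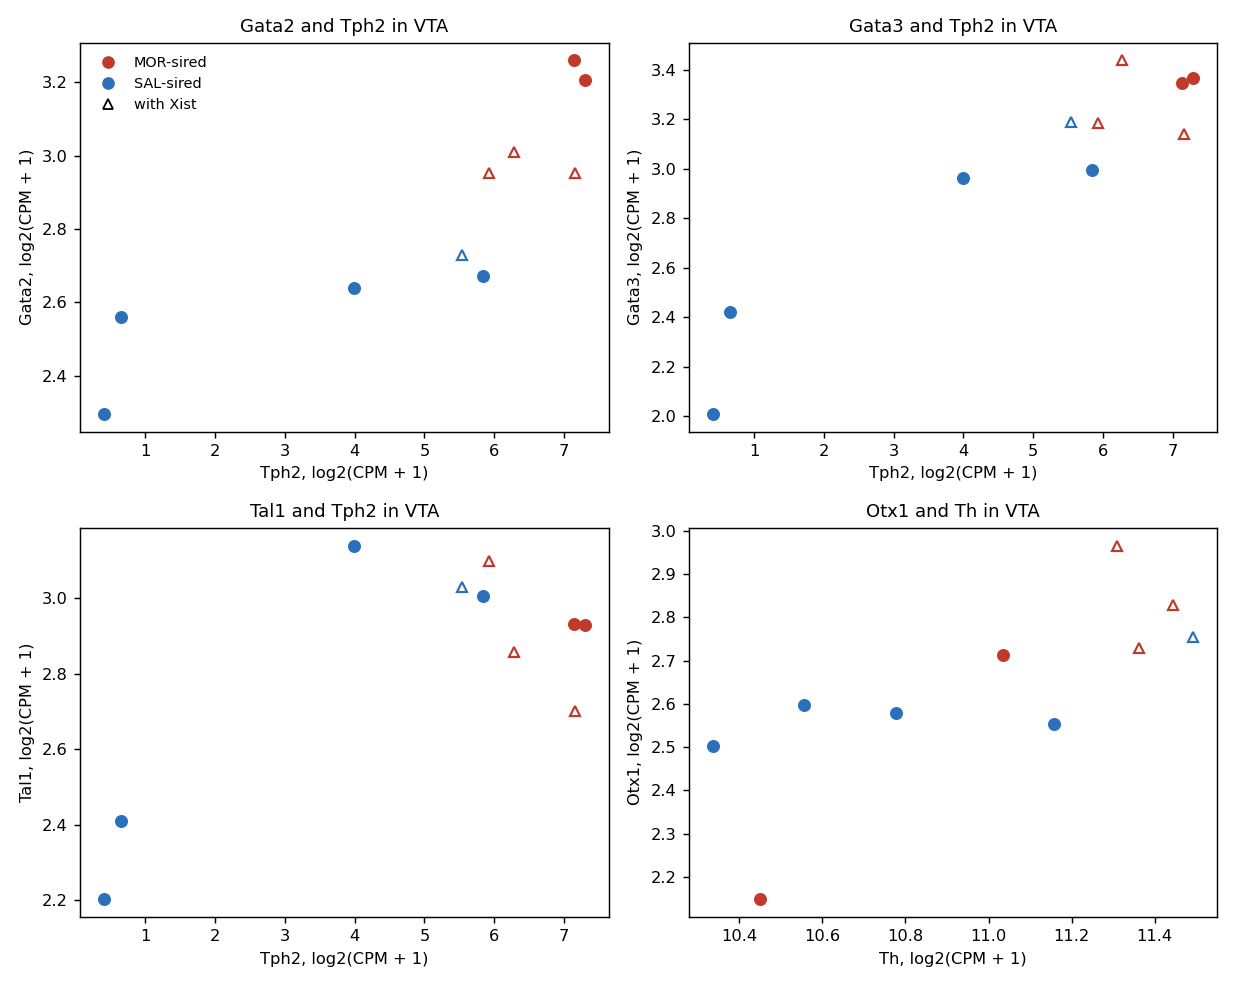
Levels of Gata2, Gata3 and Tal1 against Tph2, and of Otx1 against Th, in the 10 VTA libraries, all as log2(CPM + 1). Points are libraries coloured by sire group, with open triangles for libraries with Xist. The pair of SAL-sired libraries near 0 on the Tph2 axes was left out of the Tph2 coefficients, which were 0.83 for Gata2, 0.67 for Gata3 and -0.75 for Tal1.

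The 8 genes differed in how closely they varied with one another. With the sire group mean removed from log2 CPM, the GATA-TAL genes were the most alike over the 10 VTA libraries, with r = 0.90 for Gata3 and Tal1, 0.78 for Gata2 and Gata3 and 0.69 for Gata2 and Tal1. Sox14 went with them, at 0.67 with Gata2 and 0.61 with Tal1. Pax7 was most like Lhx1, at 0.60. Otx1 was least like the others, with no r above 0.06 and -0.50 with both Gata2 and Sox14. Of the 28 pairs 24 had an r above 0, with a median of 0.32. The libraries share depth, scaling and dissection, the low SAL-sired libraries 3 and 4 enter every pair, and the coefficients are a description with no test.

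**Figure D4:**
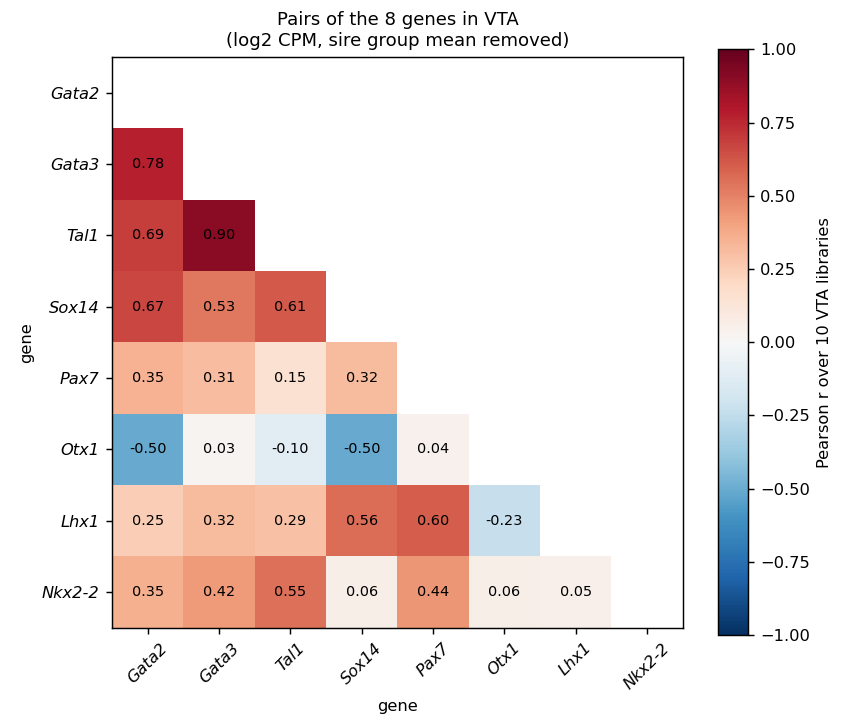
Pearson r between each pair of the 8 genes (both axes) over 10 VTA libraries, on log2 CPM with the sire group mean removed, with colour from -1 to 1. The highest value is 0.90 for Gata3 and Tal1, and the lowest is -0.50 for Gata2 and Otx1.

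Genes most like each member were sought by the same measure among 14289 other genes of at least 1 CPM (14290 for Pax7). For Gata3 they were the aminopeptidase gene Npepps (r = 0.94) and the serotonin neuron genes Tph2 (0.92) and Slc6a4 (0.91). The Gata3 likeness to Tph2 includes SAL-sired libraries 3 and 4, both low in each gene. For Gata2 they were Acbd3 (0.96), Trappc6b (0.95) and Trmt10a (0.92), and for Tal1 Stard3 (0.96), Tmem132b (0.95) and the chaperone gene Dnaja1 (0.95). Sox14 was nearest to the spliceosomal RNA gene Rnu4-2 (0.95), Cmc2 (0.94) and Rps4y2 (0.93). Pax7 was nearest to Rrp36 (0.95), the galanin receptor gene Galr2 (0.94) and the homeobox gene Shox2 (0.94). Otx1 was nearest to Pcdhga7 (0.96), Agk (0.95) and Sec31a (0.94), Lhx1 to Pold3 (0.94), Ror2 (0.92) and Ptger1 (0.90), and Nkx2-2 to Nup50 (0.94), Pgd (0.91) and Creb3 (0.90). Each value is among the highest of all those genes over 10 libraries and was not tested.

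The known partners of GATA and TAL proteins were all expressed in VTA. Of 14 such genes 10 were higher and 4 lower in MOR-sired VTA, none passed the edgeR test, and their median log2 fold change was 0.05. Those of smallest p were the E-protein gene Tcf4 at -0.27 (edgeR unadjusted p = 0.0421) and the Tal1 relative Lyl1 at 0.32 (edgeR unadjusted p = 0.0433). In NAC 7 of the 14 were higher and 7 lower, none was called, and the smallest p belonged to Ldb1 at 0.06 (edgeR unadjusted p = 0.0617) and Tcf12 at -0.08 (edgeR unadjusted p = 0.143).

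Other regulators of GABA lineages were mixed. Of 14 genes 8 could be tested in VTA, with 5 fitted higher in MOR-sired VTA, 3 lower and none called, with a median log2 fold change of 0.15. The smallest p belonged to Nkx6-2, also an oligodendrocyte gene, at 73.0 ± 8.72 CPM in MOR-sired and 65.0 ± 2.64 CPM in SAL-sired VTA (SD, n = 5 each) and a log2 fold change of 0.25 (edgeR unadjusted p = 0.0118, adjusted p = 0.856). Next was Nkx6-1, a ventral progenitor factor, at 4.19 ± 1.22 CPM in MOR-sired and 3.17 ± 0.655 CPM in SAL-sired VTA and a log2 fold change of 0.48 (edgeR unadjusted p = 0.0330). The largest fold of the list ran the other way, in genes named after their values were seen. Dlx1, a forebrain GABA factor, had 0.351 ± 0.219 CPM in MOR-sired and 0.874 ± 0.520 CPM in SAL-sired VTA and a log2 fold change of -1.22 (edgeR unadjusted p = 0.0408, adjusted p = 0.928), and its relative Dlx6 had -0.95 (edgeR unadjusted p = 0.0735). In NAC 9 were tested and none was called, with Nkx6-2 at 0.07 (edgeR unadjusted p = 0.462) and Dlx1 at 0.17 (edgeR unadjusted p = 0.520) having the smallest p. Among 7 relatives of the 8 genes only Otx2 and Sox21 could be tested. Otx2, a patterning factor of forebrain and midbrain, had a log2 fold change of -0.11 in VTA and -0.73 in NAC (edgeR unadjusted p = 0.0331, adjusted p = 0.749 in NAC), and Sox21, a relative of Sox14, -0.04 in VTA and -0.01 in NAC.

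The levels that remained in NAC were set against markers of other cells after the values had been seen. Otx1, which is known from deep cortical layers, followed the border between punches with more and less Slc17a7, the glutamate transporter of cortical neurons. The 8 NAC libraries with at least 1000 CPM of Slc17a7 had 3.42 to 4.83 CPM of Otx1, and the 6 below had 0.594 to 2.55 CPM, with 4 and 3 MOR-sired libraries among them. MOR-sired NAC library 4 was lowest in both, at 111 CPM of Slc17a7. Because the libraries fall apart in this way, no coefficient over all 14 is given. Within the 8 r was 0.15 (exact permutation p = 0.741). Within the 6 r was 0.95 (exact permutation p = 0.0444, adjusted p = 0.0889 over the 2 groups), and -0.26 without the 2 farthest libraries, so it rests on them. In VTA, Slc17a7 was highest in SAL-sired library 2, at 84.5 CPM, where Otx1 stood at 4.98 CPM, within the range of its group.

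Tal1 and Gata2 are also used by endothelial cells and blood, and Nkx2-2 by the oligodendrocyte lineage. Over the 14 NAC libraries Tal1 had r = 0.71 with the endothelial gene Cdh5 (permutation p = 0.00286, adjusted p = 0.00858 over 3 relations). Its rho was 0.75 (permutation p = 0.0025, adjusted p = 0.0075). The r was 0.50 without the 2 farthest libraries, 0.84 within the MOR-sired and 0.80 within the SAL-sired NAC libraries. Gata2 had r = 0.32 with Cdh5 (permutation p = 0.272). Nkx2-2 had r = 0.62 with the oligodendrocyte gene Sox10 (permutation p = 0.0197, adjusted p = 0.0295), with a rho of 0.46 (permutation p = 0.0978). That relation rests on MOR-sired library 4 and SAL-sired library 5, without which r was 0.10. Cdh5 and Sox10 were each picked from 5 listed markers of their cell type after the values were seen, and the other listed markers were not tried. The adjustment over 3 relations does not cover that choice.

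**Figure D5:**
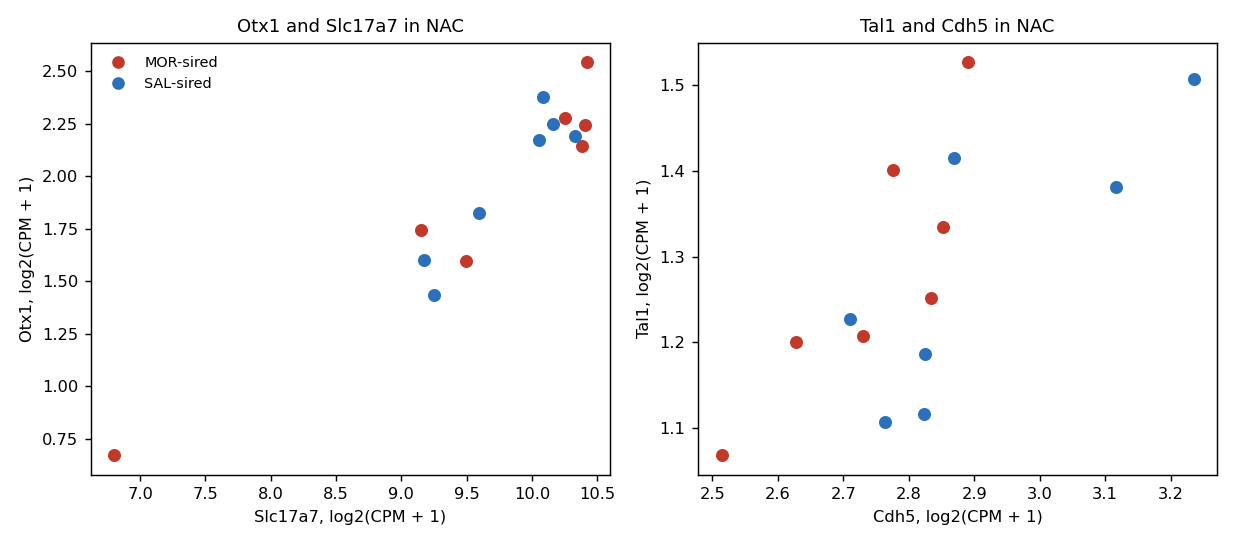
Otx1 against Slc17a7 (left) and Tal1 against Cdh5 (right) in the 14 NAC libraries, as log2(CPM + 1). Points are libraries coloured by sire group. The 8 libraries with the most Slc17a7 lie above the other 6 in Otx1, and Tal1 is higher in libraries with more Cdh5, at r = 0.71.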

How the data were processed

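Total RNA of bulk punches was sequenced from directional libraries, per the labels' protocols. The authors deposited, per the file headers and names, estimated counts per gene in 2 tables, 1 per region, made by scaling transcript abundances (TPM) to the library total. Such values carry no correction between libraries and are not read counts: a short transcript receives more per read than a long one. Per the submitters' processing notes, Trim Galore, kallisto and DESeq2 were used, and their versions, the genome build, the annotation and the strand setting were not given in the sources used here. Members and gene lists were chosen with earlier results of these data known.

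Estimated counts were rounded, filtered with filterByExpr and scaled by TMM, and each region was tested separately over its whole table with edgeR's quasi-likelihood test (two-sided, no covariate, Benjamini-Hochberg adjustment, threshold 0.05). The difference between regions was a contrast of 4 group means over 24 libraries. Log2 fold changes are MOR-sired over SAL-sired, while levels are plain CPM, so a ratio of means can differ from the fitted fold. Correlations on log2(CPM + 1) used exact permutations under 10 libraries and 100000 permutations otherwise, two-sided. Named genes beyond the members were those of smallest p, 2 for each list and region, and the 3 most like each member. Scripts were tested on simulated data. Same-numbered libraries of the 2 sire groups correlated at -0.13 to 0.13 in VTA and -0.26 to 0.10 in NAC, so the numbers were not taken as pairs. Library totals of 21.9 to 43.5 M estimated counts limit precision mainly for Pax7 and for the 4 genes near 0 in NAC, and no counting interval was computed because the values are scaled estimates. Alternatives were DESeq2, limma-voom, other scalings, no filter, the replicate block, library number, Tph2, Th, Slc32a1 and Slc17a7 covariates, and libraries left out. Library number entered as a mark of low or high numbers within each region, not as the number itself. The Slc32a1 and Slc17a7 covariates, the fit without the libraries with Tph2 under 1 CPM, the restriction of the Tph2 relations and the NAC relations were chosen after seeing the data. Fits used DESeq2 1.42.0, limma 3.58.1 and edgeR 4.0.16 in R 4.3.3, and correlations used numpy 2.4.6, scipy 1.17.1 and pandas 2.3.3 in Python 3.11.15.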

Additional observations from a re-analysis of the deposited data

How the results depend on the processing

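In VTA, edgeR called 0 genes while DESeq2 called 27 of the filtered genes and 121 of all genes, Gata2 among them each time. In NAC edgeR called 0, DESeq2 4 and 74, and limma-voom 52, and none of the members. At an unadjusted p under 0.05 edgeR had 1058 genes in VTA and 1126 in NAC. The contrast between regions called 7 genes without the libraries with Xist, against 0 with them and 984 unadjusted. Leaving out single libraries gave 0 genes in VTA and in NAC, and leaving out single VTA libraries gave 0 in the contrast.

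Of 192 alternative fold changes of the members in VTA, 188 kept direction and side of the threshold, 2 passed it (Gata2 by DESeq2) and 2 reversed (Tal1, at -0.31 with the Tph2 covariate and -0.091 without the libraries low in Tph2). Over single libraries left out, Gata2 stayed at 0.57 to 0.73, Gata3 at 0.52 to 0.84 and Pax7 at 0.84 to 1.49. In NAC 18 of 92 reversed, all with fold changes near 0: Tal1 was -0.0077 by DESeq2 on all genes, -0.0022 with RLE factors, -0.018 with no filter, -0.080 with library number and -0.064 to 0.065 with single libraries left out, and Otx1 was 0.041 by limma-voom, 0.057 with library number and -0.20 to 0.13 with single libraries left out. In the contrast between regions none of 112 changed. The fit with the replicate block, whose numbers did not pair the libraries, gave a log2 fold change of 0.67 for Gata2 in VTA (adjusted p = 1.0 in edgeR's quasi-likelihood test) and changed no call.

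Of the 16 relations 1 passed on TMM-scaled CPM and 1 without MOR-sired VTA library 4, Gata2 with Tph2 each time (adjusted permutation p = 0.00635 by rho and 0.0381 by r), so the count was 0 to 1 over single libraries left out. Of 232 alternative coefficients 16 reversed, none of them of a relation with an unadjusted p under 0.05. With Tph2 these were Nkx2-2 (0.077 without the log, 0.21 TMM-scaled), Otx1 (0.12) and Lhx1 (0.15) TMM-scaled. With Th these were Gata2 (-0.029) and Sox14 (-0.14) with sire means removed and Pax7 (-0.039) without the libraries with Xist. Over single libraries left out r ran from -0.28 to 0.56 for Otx1 with Tph2, -0.46 to 0.42 for Nkx2-2 with Tph2, -0.20 to 0.40 for Lhx1 with Tph2, -0.12 to 0.39 for Sox14 with Th and -0.086 to 0.48 for Lhx1 with Th. The cause of these changes was not tested. Without the libraries with Xist only 4 libraries remained for Tph2, too few for a coefficient.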
